A study of Mus musculus with 8 samples.

Results

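The genes described here encode parts of the motile cilium, the beating organelle that respiratory ciliated cells carry on their surface. They were chosen by name: intermediate and light chains of axonemal dynein, tektins, radial spoke proteins, central pair proteins, a set of coiled-coil docking proteins, and Foxj1, Hydin, Dynlrb2, Tppp3 and Cdhr3. The rule found 33 of the 25913 genes in the deposited count table. It also asks for dynein heavy chains named Dnah, but the table spells them Dnahc, so the rule found none, and the 14 genes with that spelling are described separately below as a list added after the data were seen. RNA came from dissected olfactory epithelium of C57BL/6J mice aged 40 weeks, in a study of mice that lack the insulin-like growth factor 1 receptor (Igf1r) in olfactory sensory neurons. The deletion is described as homozygous and tissue-specific and is named for Omp, whose promoter is active in mature olfactory sensory neurons. The 2 groups of 4 libraries are named by their titles, IGF1R_flfl (replicates 1, 2, 13 and 3, the order used below) and OMP_IGF1R (replicates 11, 12, 17 and 18). Genotypes are recorded the other way round: the field reads OMPIGF1 (KO) for libraries titled IGF1R_flfl and OMPflfl (Ctrl) for libraries titled OMP_IGF1R. Every difference below is therefore that of the OMP_IGF1R-titled libraries over the IGF1R_flfl-titled ones, with no claim on genotype.

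A motile cilium is built on 9 outer microtubule doublets and a central pair. Dynein arms on the doublets slide them against each other, radial spokes and the central pair control the arms, and docking and ruler proteins set the spacing of arms and spokes. Tektins lie within the doublets, and Foxj1 is the transcription factor that switches on the genes of motile cilia. In the nose, beating cilia belong to the respiratory epithelium, whereas the cilia of olfactory sensory neurons hold the odour receptors and do not beat in mammals.

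Total counts ran from 18802471 to 27793375 per library, so 3 counts correspond to 0.109 to 0.153 CPM (counts per 1e6, scaled by TMM effective library sizes). Igf1r stood at 66.5 ± 7.65 CPM in the IGF1R_flfl-titled libraries and 42.1 ± 6.32 CPM in the OMP_IGF1R-titled ones (SD, n = 4 each; log2 fold change -0.66, adjusted p = 0.0117 by edgeR), so Igf1r was lower where the genotype field reads Ctrl. Markers of olfactory bulb and oligodendrocytes came to 1350 CPM in all in IGF1R_flfl 2, against 59.7 to 97.3 CPM in each other library, and markers of skeletal muscle to 502 CPM in OMP_IGF1R 17, against 4.50 to 7.81 CPM. Whether each library is a separate animal is not said in the labels, so the p-values reflect only how these samples vary, which may be technical. The numbers that open the titles run from 35138 to 35141 in one group and from 35156 to 35159 in the other, so a batch that follows them and the group cannot be told apart. In bulk RNA, fewer cells of a type and less RNA per cell cannot be told apart.

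Of the 33 members, 32 had enough reads to be tested. Of these, 8 fell in the OMP_IGF1R-titled libraries, 0 rose and 24 did not pass the test (edgeR quasi-likelihood test, adjusted p under 0.05 over 17381 genes). Among all tested genes 8.20% were called, with 5.37% lower and 2.83% higher. The members that fell were Spef2, Ccdc40, Ccdc65, Tekt1, Ccdc114, Rsph4a, Ccdc39 and Tekt3, with log2 fold changes from -0.38 to -0.79. Before adjustment, 14 members were lower and 0 higher at a p under 0.05, which 23.5% of all tested genes reached in either direction by edgeR. DESeq2 called 11 members lower and 0 higher, among 2140 genes it called in all in either direction. By voom, 12 members were lower and 0 higher. The shares of all genes by direction are not given here for DESeq2 and voom, so their counts of members cannot be set against edgeR's. The fold change was negative for 31 of 32 members, with a median log2 value of -0.24, against 52.5% of genes and a median of -0.01 over all genes tested. For 9 members every library titled OMP_IGF1R lay below every library titled IGF1R_flfl, a separation that 10.3% of all genes showed, and for 0 members it was the other way round, as it was for 6.57% of all genes. Summed over the 33 members, expression was 1974, 1513, 1744 and 1814 CPM in IGF1R_flfl 1, 2, 13 and 3 and 1359, 1242, 1426 and 1453 CPM in OMP_IGF1R 11, 12, 17 and 18. The highest sum titled OMP_IGF1R was thus below the lowest titled IGF1R_flfl, and the means of 1761 ± 191 and 1370 ± 93.9 CPM (SD, n = 4 each) gave a ratio of 0.778.

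The number of members that fell depended on the libraries included. It was 5 without IGF1R_flfl 1, 4 without OMP_IGF1R 11 and 4 without OMP_IGF1R 12, and 13 without both IGF1R_flfl 2 and OMP_IGF1R 17, the libraries with bulb and muscle RNA. Leaving out both IGF1R_flfl 1 and OMP_IGF1R 18, the libraries in which most members were highest within their group, left 1 member, Spef2, among 151 genes called in all. This last pair was chosen after the data were seen.

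**Figure D1:**
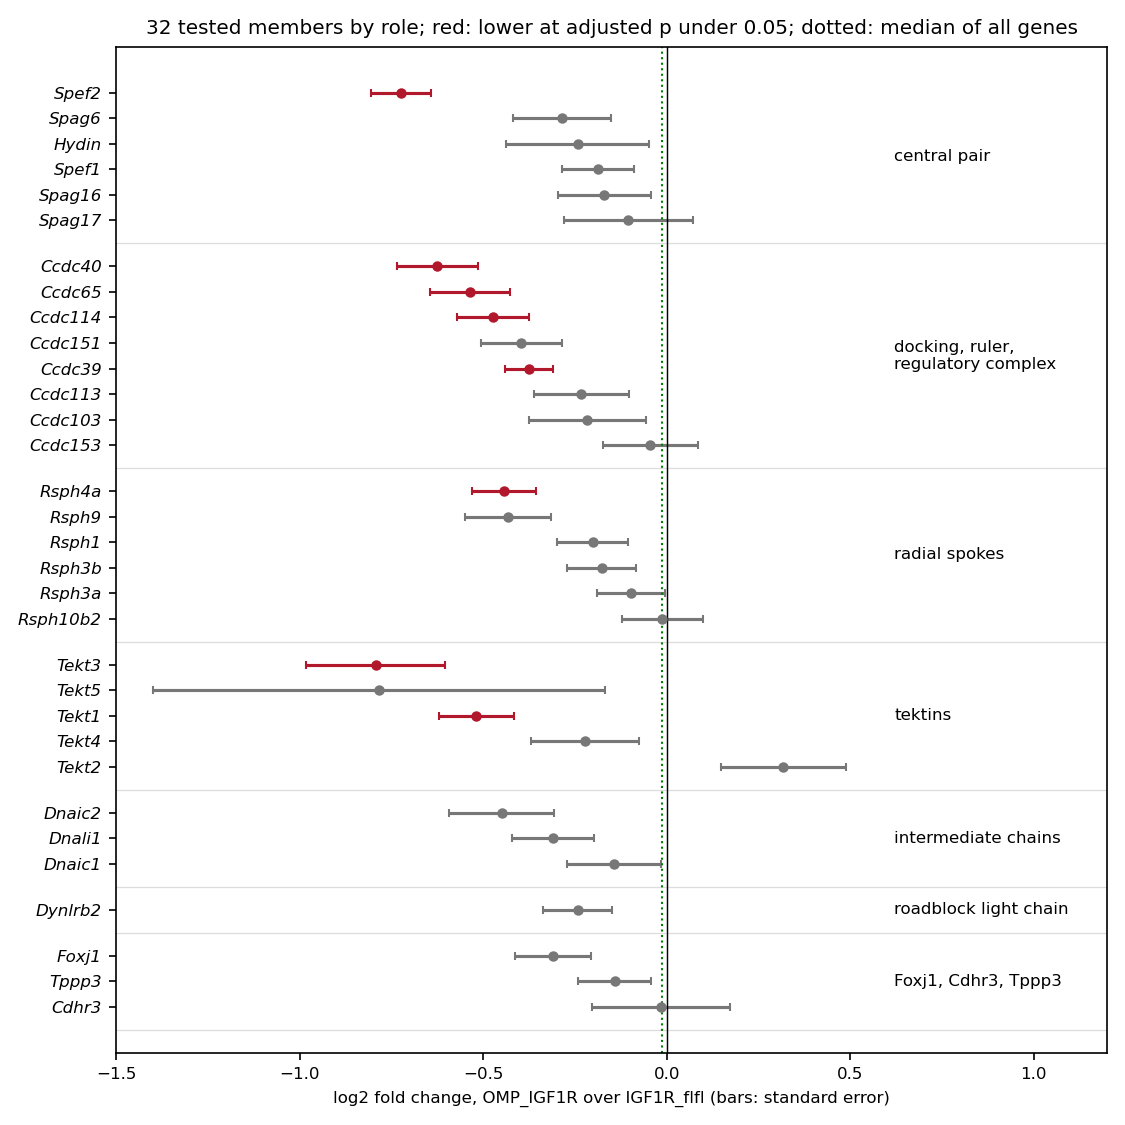
Log2 fold change of the 32 tested members (x axis, OMP_IGF1R over IGF1R_flfl, bars are standard errors), grouped by role, with the 8 members that fell in red. The values run from -0.79 in Tekt3 to 0.32 in Tekt2, and 31 of the 32 points lie left of 0.

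Promoter sequence is shown because members share a short element in it that the rule did not use. RFX transcription factors, which act with Foxj1 on ciliary genes, bind paired copies of a half-site, GTTGCC on either strand. In RefSeq promoters (GRCm38.p6, 250 bases before to 50 after the start), matched for 27 of the 33 members, 13 members held at least 1 exact half-site, or 48.1%, against 14.1% of all genes with a promoter. Of the 7 members with a promoter that fell, 2 held one, Spef2 and Tekt1. The forkhead heptamer TGTTTAC, searched on both strands, was found in 1 member, Tekt3, whose promoter held no half-site, and in 4.05% of all genes. The promoters below are of both members that fell with a half-site, of Spag16, which held 2 copies close together, and of Hydin and Cdhr3, which did not pass the test. Each is read on the strand of the gene, 5′ to 3′, and the half-sites are in capitals.
Spef2, chr15:9748819-9749118, minus strand: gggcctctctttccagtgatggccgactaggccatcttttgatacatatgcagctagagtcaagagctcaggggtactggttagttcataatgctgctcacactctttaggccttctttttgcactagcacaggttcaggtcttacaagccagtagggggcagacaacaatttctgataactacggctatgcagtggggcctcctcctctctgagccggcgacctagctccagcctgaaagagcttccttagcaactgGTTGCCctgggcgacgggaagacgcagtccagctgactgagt
Tekt1, chr11:72361833-72362132, minus strand: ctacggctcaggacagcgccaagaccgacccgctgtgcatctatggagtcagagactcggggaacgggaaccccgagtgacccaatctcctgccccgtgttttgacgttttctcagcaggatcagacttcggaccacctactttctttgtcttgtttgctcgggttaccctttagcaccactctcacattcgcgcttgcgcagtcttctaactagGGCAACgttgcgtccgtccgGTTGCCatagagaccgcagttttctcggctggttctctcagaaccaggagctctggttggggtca
Spag16, chr1:69826720-69827019, plus strand: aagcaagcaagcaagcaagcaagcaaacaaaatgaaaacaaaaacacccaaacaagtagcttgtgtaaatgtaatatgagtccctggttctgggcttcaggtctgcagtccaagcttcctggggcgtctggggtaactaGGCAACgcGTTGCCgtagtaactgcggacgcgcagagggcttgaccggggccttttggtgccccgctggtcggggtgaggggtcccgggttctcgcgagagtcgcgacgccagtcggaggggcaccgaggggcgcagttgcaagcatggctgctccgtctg
Hydin, chr8:110266727-110267026, plus strand: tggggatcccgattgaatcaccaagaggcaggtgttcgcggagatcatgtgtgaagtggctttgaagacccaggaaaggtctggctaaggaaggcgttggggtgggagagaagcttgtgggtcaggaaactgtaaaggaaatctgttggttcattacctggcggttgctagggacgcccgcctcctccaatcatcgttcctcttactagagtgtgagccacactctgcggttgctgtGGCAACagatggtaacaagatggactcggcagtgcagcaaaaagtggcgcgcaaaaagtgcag
Cdhr3, chr12:33092826-33093125, minus strand: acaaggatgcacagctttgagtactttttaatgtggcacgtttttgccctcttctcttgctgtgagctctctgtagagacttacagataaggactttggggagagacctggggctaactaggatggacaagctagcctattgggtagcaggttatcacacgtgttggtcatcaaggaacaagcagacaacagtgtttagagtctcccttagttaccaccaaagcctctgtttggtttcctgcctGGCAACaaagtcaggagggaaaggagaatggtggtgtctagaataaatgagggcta
In Tekt1 and Spag16 a copy on one strand (GGCAAC) is followed closely by a copy on the other (GTTGCC). Hydin and Cdhr3 each held 1 copy close before the start, and Spef2 held 1 copy after it. Only exact copies were searched for, and their order and spacing were not compared with those of a bound pair. A match is a description of the letters and not of binding.

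Among the proteins of the central pair apparatus, Spef2 fell and the other 5 did not pass the test, where 5.37% of all tested genes fell by edgeR. Spef2, a central pair protein needed for ciliary and sperm flagellar beating (chromosome 15, 9578193 to 9748868 in the deposited table, GRCm38), stood at 254, 221, 228 and 267 CPM in the IGF1R_flfl-titled libraries and at 143, 136, 163 and 144 CPM in the OMP_IGF1R-titled ones. The groups were far apart, with 221 CPM the lowest value of the first and 163 CPM the highest of the second. The log2 fold change was -0.72 (SE 0.0815, adjusted p = 0.0032 by edgeR), and it passed the test under all 16 alternatives tried. Spef1, a microtubule-bundling protein of the central pair, stood at 128, 107, 116 and 150 CPM and at 117, 103.5, 111 and 108 CPM, so the groups overlapped (log2 -0.19, SE 0.0987, adjusted p = 0.29 by edgeR). The bounds of Spef1 overlap those of 3 other genes in the table (Gm14232, Cenpb and Cdc25b), whose reads it may share.

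Hydin, a very large protein of a central pair projection, was at 77.5 CPM in IGF1R_flfl 1 and at 45.3, 51.4 and 40.2 CPM in IGF1R_flfl 2, 13 and 3. In the OMP_IGF1R-titled libraries it was at 48.5, 40.5, 38.8 and 53.6 CPM. A single library thus held the high value, and the other 3 libraries of its group lay within the range of the second group (log2 -0.24, SE 0.195, 95% interval -0.68 to 0.19, adjusted p = 0.50 by edgeR). Without IGF1R_flfl 1 the log2 fold change was -0.01. Spag6, Spag16 and Spag17, 3 further central pair proteins, had log2 fold changes of -0.28, -0.17 and -0.10, and each had overlapping groups. The gene listed as Spag6 lies on chromosome 16.

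The docking, ruler and regulatory proteins held the most members that fell, 4 of 8, where 5.37% of all tested genes fell by edgeR. Differences between the roles were not tested. Ccdc40 and Ccdc39 together form the ruler that sets the repeat of dynein arms and spokes along the doublet. Ccdc40 (chromosome 11, 119228572 to 119265236) was at 205, 152, 167 and 212 CPM in the IGF1R_flfl-titled libraries and at 116, 108, 128 and 125 CPM in the OMP_IGF1R-titled ones (log2 -0.63, SE 0.11, adjusted p = 0.0117 by edgeR). Its partner Ccdc39 (chromosome 3, 33812362 to 33844310) was at 116, 98.5, 106 and 113.1 CPM and at 78.2, 83.3, 82.9 and 89.9 CPM (log2 -0.38, SE 0.0665, adjusted p = 0.012 by edgeR). Both ruler genes were separate between the groups and kept their call without any 1 library, and both lost it without IGF1R_flfl 1 and OMP_IGF1R 18 together (adjusted p = 0.0856 by edgeR and 0.0616). Of the 100-base windows of Ccdc39 transcripts, 11.9% also occur on the other strand of Ttc14 transcripts, and the strand setting of the counting is not given in the sources used here.

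Ccdc65, a subunit of the nexin-dynein regulatory complex (chromosome 15, 98708207 to 98723326), was at 44.1, 33.4, 41.5 and 44.4 CPM against 28.5, 23.6, 30.3 and 30.3 CPM (log2 -0.54, SE 0.11, adjusted p = 0.0193 by edgeR). Ccdc114, a docking protein of the outer dynein arm (chromosome 7, 45924072 to 45948956), was at 39.9, 29.2, 35.2 and 37.9 CPM against 26.8, 23.2, 25.4 and 27.0 CPM (log2 -0.47, SE 0.0984, adjusted p = 0.0208 by edgeR). In both genes IGF1R_flfl 2 was the lowest of its group and OMP_IGF1R 12 the lowest of all, and the groups did not overlap. Ccdc65 lost its call without IGF1R_flfl 1 or OMP_IGF1R 11 or 12 (edgeR adjusted p up to 0.0555). Ccdc114 lost it without IGF1R_flfl 1 or 3 or OMP_IGF1R 11, 12 or 18 (edgeR adjusted p up to 0.0673). Ccdc151, which also takes part in docking the outer arm, had a log2 fold change of -0.40 (adjusted p = 0.0587 by edgeR), with OMP_IGF1R 12 at 26.64 CPM just above IGF1R_flfl 2 at 26.56 CPM. The remaining members of this group had smaller differences: Ccdc113 at -0.23, Ccdc103, a dynein arm attachment factor, at -0.22 and Ccdc153 at -0.04.

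Of the 6 tested radial spoke genes, Rsph4a fell, where 5.37% of all tested genes fell by edgeR. Rsph4a, a protein of the spoke head (chromosome 10, 33905111 to 33916021), was at 99.4, 76.9, 93.5 and 83.7 CPM in the IGF1R_flfl-titled libraries and at 61.0, 61.2, 67.2 and 70.5 CPM in the OMP_IGF1R-titled ones, with no overlap (log2 -0.44, SE 0.0863, adjusted p = 0.0163 by edgeR). Its call was lost without OMP_IGF1R 11 or 12 (edgeR adjusted p up to 0.0565). Rsph9, another spoke head protein, was at 64.1, 53.2, 56.6 and 72.4 CPM against 46.2, 38.1, 53.0 and 45.3 CPM. Its groups did not overlap, by a narrow margin, and it missed the threshold (log2 -0.43, SE 0.116, adjusted p = 0.052 by edgeR). Rsph1, a further component of the spoke head, was at 85.2, 61.4, 73.3 and 75.2 CPM against 61.4, 58.6, 67.9 and 68.9 CPM, with IGF1R_flfl 2 alone inside the range of the other group (log2 -0.20, SE 0.0968, adjusted p = 0.25 by edgeR).

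The other spoke genes had log2 fold changes between -0.18 and -0.01. Rsph3a and Rsph3b are close copies on chromosome 17: 48.2% of the 100-base windows of Rsph3a transcripts and 52.8% of those of Rsph3b also occur in other genes, chiefly in each other, so their separate values (-0.10 and -0.18) are uncertain. The mean of Rsph10b2 was 12.5 ± 1.67 and 12.4 ± 0.933 CPM (SD, n = 4 each), and its log2 fold change of -0.01 had a 95% interval of -0.26 to 0.24. Rsph6a, a spoke protein of sperm, had 12 reads over all 8 libraries and was not tested.

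The tektins, filament proteins of the doublets, ran from the lowest to the highest fold change among the members. Tekt1 (chromosome 11, 72344722 to 72362442) was at 47.1, 38.4, 44.0 and 48.3 CPM in the IGF1R_flfl-titled libraries and at 32.6, 25.5, 32.9 and 33.1 CPM in the OMP_IGF1R-titled ones (log2 -0.52, SE 0.101, adjusted p = 0.0164 by edgeR). Tekt3 (chromosome 11, 63061654 to 63094964) was low, at 1.38, 1.41, 1.32 and 1.71 CPM against 0.867, 0.678, 0.885 and 0.922 CPM, which rests on 226 reads in all (log2 -0.79, SE 0.189, adjusted p = 0.0342 by edgeR). Neither gene's groups overlapped. Tekt1 kept its call without any 1 library and lost it without IGF1R_flfl 1 and OMP_IGF1R 18 together (adjusted p = 0.1 by edgeR), whereas Tekt3 lost it whichever library was left out (adjusted p = 0.0518 by edgeR to 0.102) and by DESeq2 (adjusted p = 0.0678).

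Tekt2 was the 1 member with a positive fold change. It was at 7.28, 4.12, 6.18 and 5.47 CPM in the IGF1R_flfl-titled libraries and at 6.99, 6.78, 6.77 and 8.18 CPM in the OMP_IGF1R-titled ones (log2 0.32, SE 0.17, 95% interval -0.06 to 0.70, adjusted p = 0.30 by edgeR). IGF1R_flfl 1 lay within the range of the other group. Tekt4 was at 14.5, 10.2, 15.2 and 13.4 CPM against 12.6, 9.12, 11.8 and 12.1 CPM, with overlap (log2 -0.22, SE 0.147, adjusted p = 0.41 by edgeR). Tekt5 stood at 2.67 CPM in IGF1R_flfl 2, the library with bulb RNA, and at 0.363 to 0.918 CPM in the other 7, and the part of that RNA in its value was not tested (log2 -0.78, SE 0.615, adjusted p = 0.49 by edgeR).

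Of the 4 dynein chains among the members 0 passed the edgeR test, with 3 lower at an unadjusted p under 0.05, 1 called by DESeq2 and 1 by voom. Over all tested genes, edgeR called 8.20%, and 23.5% had an unadjusted p under 0.05 in either direction. The intermediate chain Dnaic2, part of the outer arm, was at 55.6, 34.9, 43.2 and 44.0 CPM against 33.1, 26.3, 35.4 and 35.5 CPM, so that IGF1R_flfl 2 lay within the other group (log2 -0.45, SE 0.143, adjusted p = 0.0898 by edgeR). Without IGF1R_flfl 2 it passed the edgeR test (adjusted p = 0.0274), as it did with all libraries by DESeq2 (adjusted p = 0.0283) and voom (adjusted p = 0.0479). Dnali1, a light-intermediate chain of inner arms, was at 45.4, 31.5, 43.5 and 41.0 CPM against 31.1, 29.9, 33.1 and 36.1 CPM (log2 -0.31, SE 0.112, adjusted p = 0.13 by edgeR), and it too passed without IGF1R_flfl 2 (adjusted p = 0.0145 by edgeR). Dnaic1, the other intermediate chain, had a log2 fold change of -0.14. Dynlrb2, a roadblock light chain, was at 42.1, 34.0, 38.3 and 38.5 CPM against 30.3, 28.4, 36.8 and 33.9 CPM, with overlap at IGF1R_flfl 2 (log2 -0.24, SE 0.094, adjusted p = 0.16 by edgeR).

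**Figure D2:**
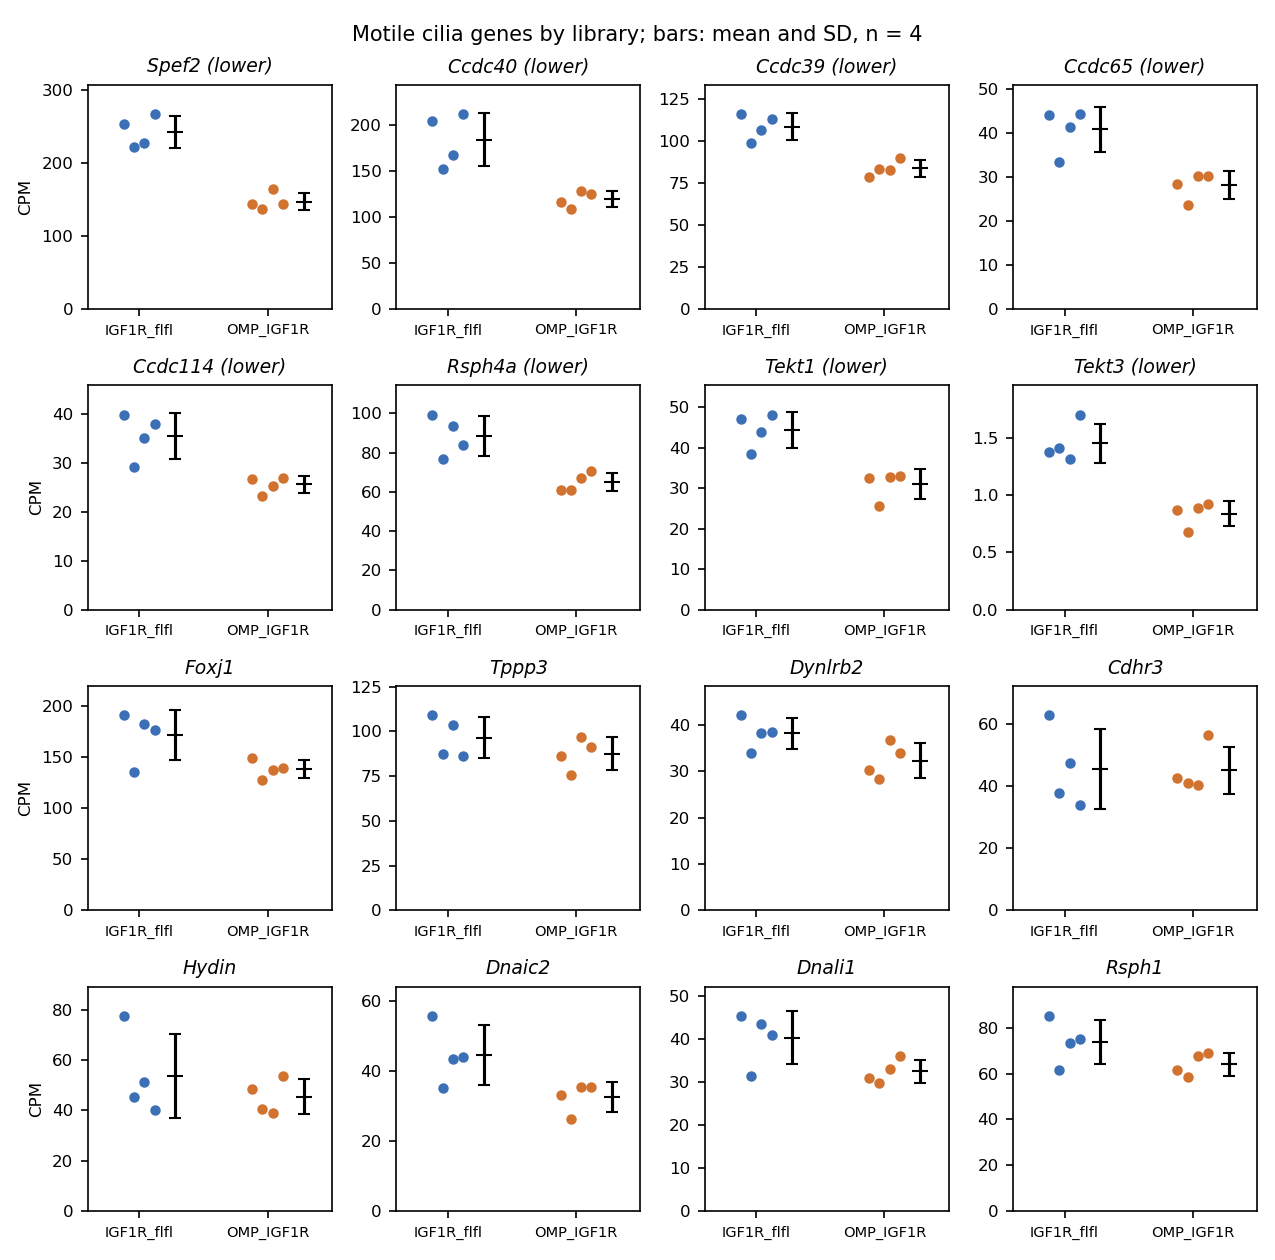
CPM (y axis, from 0) in each library for the 8 members that fell and 8 others, with IGF1R_flfl in blue and OMP_IGF1R in orange and bars for the mean and SD of 4 libraries. In Spef2 the lowest blue point is at 221 CPM and the highest orange point at 163 CPM, whereas in Cdhr3 and Hydin the groups overlap, with IGF1R_flfl 1 the highest point of each at 62.9 and 77.5 CPM.

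Foxj1, Cdhr3, Tppp3 and Dynlrb2 were taken as markers of ciliated cells, and since the rule names all 4, their detection is no separate check of the label. Which cells of the dissected epithelium the reads of the members came from was not tested. Outside the rule, the ciliated cell genes Tmem212 and Sntn, singled out after their values were seen, were detected, with means of 22.3 to 35.1 CPM in the groups. Of 9 listed markers of respiratory secretory and goblet cells, 8 had enough reads to be tested and Scgb1a1 had 0 reads. Per kilobase of exon, mean levels were 63.5 CPM for Dynlrb2, 59.1 for Foxj1, 49.8 for Tppp3 and 9.92 for Cdhr3, and over the members they ran from 0.0228 CPM per kilobase in Rsph6a to that of Dynlrb2. Foxj1 was at 191, 135, 183 and 177 CPM in the IGF1R_flfl-titled libraries and at 149, 128, 137 and 139 CPM in the OMP_IGF1R-titled ones. Only IGF1R_flfl 2 lay within the range of the other group (log2 -0.31, SE 0.104, adjusted p = 0.11 by edgeR). Foxj1 passed the edgeR test without IGF1R_flfl 2 (adjusted p = 0.0112) and, with all libraries, passed DESeq2 (adjusted p = 0.0404) and voom (adjusted p = 0.0263).

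Tppp3, a tubulin-binding protein, was at 109, 87.6, 104 and 86.0 CPM against 86.3, 75.4, 97.1 and 91.4 CPM (log2 -0.14, SE 0.1, 95% interval -0.37 to 0.08, adjusted p = 0.44 by edgeR). Cdhr3, a cadherin of airway ciliated cells, was at 62.9, 37.8, 47.5 and 34.1 CPM against 42.7, 41.0, 40.3 and 56.4 CPM. In both genes the groups overlapped, and in Cdhr3 the group means came to 45.6 ± 12.9 and 45.1 ± 7.64 CPM (SD, n = 4 each; log2 -0.01, SE 0.188, 95% interval -0.44 to 0.41, adjusted p = 0.97 by edgeR). The sign for Cdhr3 changed with upper-quartile scaling (0.02) and without any of IGF1R_flfl 1 or 13 or OMP_IGF1R 11, 12 or 17 (up to 0.18). The difference between Cdhr3 and the members that fell was not tested.

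Across libraries the members followed a common pattern with exceptions. Of the 32 tested members, 20 were highest of all in IGF1R_flfl 1 and 9 in IGF1R_flfl 3, and 21 were lowest of all in OMP_IGF1R 12. Within the group titled OMP_IGF1R, 22 of 32 were highest in OMP_IGF1R 18. These counts were not taken over all tested genes, so whether the pattern is particular to the members was not tested. The median deviation from the group mean was 0.18 in IGF1R_flfl 1 and -0.20 in IGF1R_flfl 2 on the log2 scale, and 0.11 in OMP_IGF1R 18 and -0.14 in OMP_IGF1R 12. The 8 members that fell and the 24 others differed in which library led: IGF1R_flfl 3 was highest for 5 of the 8 (Spef2, Ccdc40, Ccdc65, Tekt1 and Tekt3) and for 4 of the 24, and IGF1R_flfl 1 for 3 of the 8 and 17 of the 24. Since a call depends on the same libraries, these counts are a description. Cdhr3, Spag17 and Tekt2 were among the members highest of their group in both IGF1R_flfl 1 and OMP_IGF1R 18. So were Ccdc39, Ccdc114 and Rsph4a, which fell. Spef2 and Ccdc40, which fell, and Rsph9, which did not pass the test, led in IGF1R_flfl 3 and OMP_IGF1R 17.

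**Figure D3:**
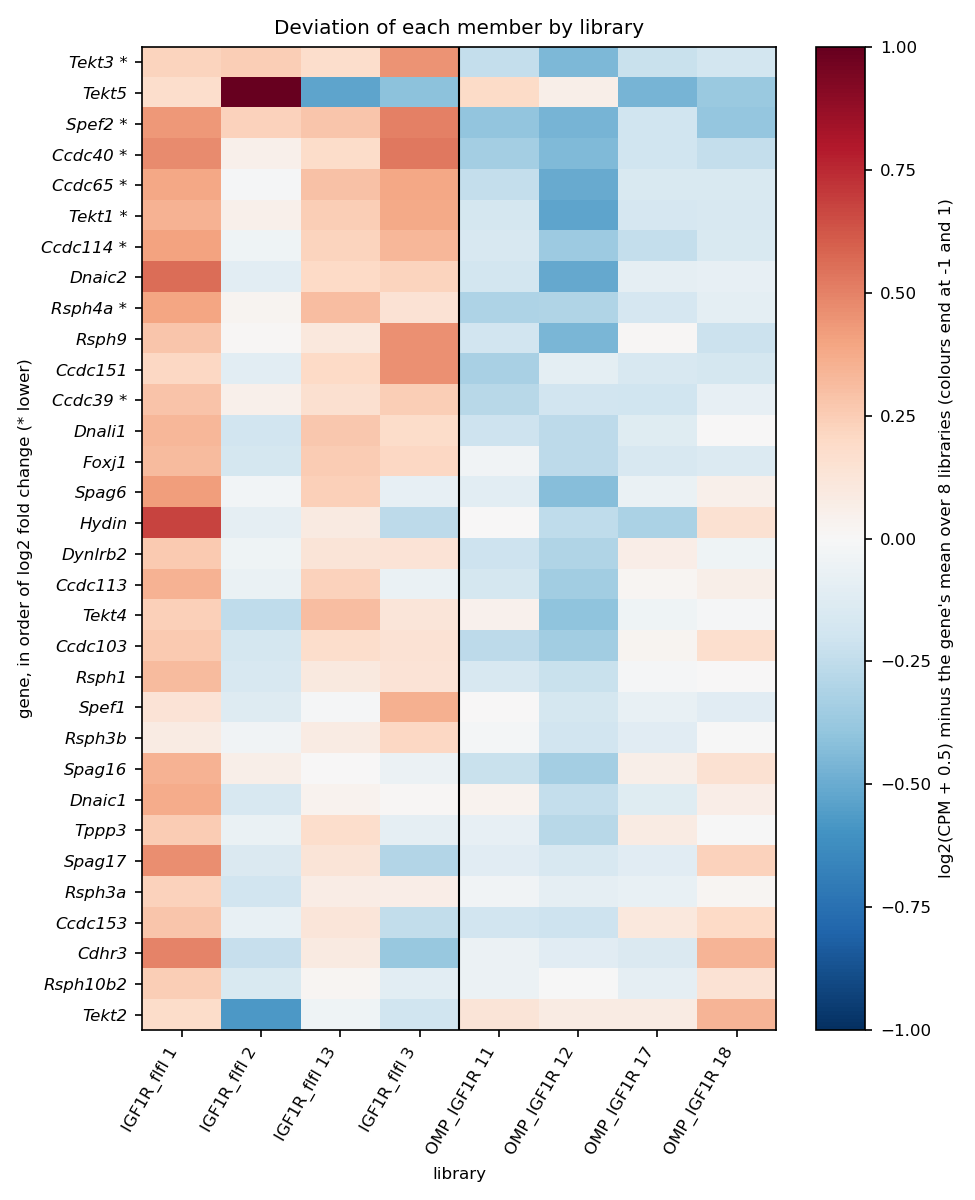
Deviation of each tested member (rows, in order of log2 fold change, with stars on members that fell) from its own mean over 8 libraries (columns), in log2 of CPM + 0.5, red above and blue below. IGF1R_flfl 1 is highest for 20 of 32 rows and OMP_IGF1R 12 lowest for 21, and Tekt5 stands out as high in IGF1R_flfl 2.

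Of the marker lists of other cells in the epithelium, that of mature neurons was called throughout and those of secretory, sustentacular, basal and gland cells had 0 members called by edgeR. Over all tested genes, edgeR called 8.20%, and 23.5% had an unadjusted p under 0.05. All 10 markers of mature olfactory sensory neurons fell, and their sum was 14560 to 20540 CPM in the IGF1R_flfl-titled libraries, highest in IGF1R_flfl 3, and 8315 to 9982 CPM in the OMP_IGF1R-titled ones, lowest in OMP_IGF1R 12. Omp, the gene that names the driver, is among them (5386 ± 990 and 1969 ± 224 CPM, SD, n = 4 each; log2 -1.45). It made up 5386 of the mean sum of 16910 CPM in IGF1R_flfl and 1969 of 9165 CPM in OMP_IGF1R. The other markers on the neuron list had log2 fold changes from -1.04 to -0.42. Whether Omp RNA followed the number of neurons was not tested. Of 8 tested markers of respiratory secretory and goblet cells, 0 were called by edgeR, 1 rose by DESeq2, 0 were called by voom and 3 had an unadjusted p under 0.05, all higher. Their sum was 12930 to 16890 CPM and 15900 to 22830 CPM, with the highest value in OMP_IGF1R 18, and Scgb1a1, a defining marker, had 0 reads. Bpifa1 alone made up most of this sum, with means of 13216 of 14870 CPM in IGF1R_flfl and 16882 of 18860 CPM in OMP_IGF1R. Of 5 sustentacular cell markers 0 were called by edgeR, DESeq2 or voom and 0 had an unadjusted p under 0.05, with sums of 13330 to 15770 and 13860 to 15030 CPM. The 4 basal cell markers summed to 159 to 201 CPM and 215 to 406 CPM, with 0 called by edgeR, 2 higher by DESeq2, 2 higher by voom and 3 higher at an unadjusted p under 0.05. The 5 nasal gland markers summed to 5152 to 27360 and 6102 to 20610 CPM, with 0 called by any of the 3 tools and 0 at an unadjusted p under 0.05. Of 6 spermatid markers, cells that also build motile axonemes, 0 had enough reads to be tested, and Prm2, Tnp1 and Smcp had 0 reads. The part of neurons, basal cells or secretory cells in the members' differences was not tested.

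**Figure D4:**
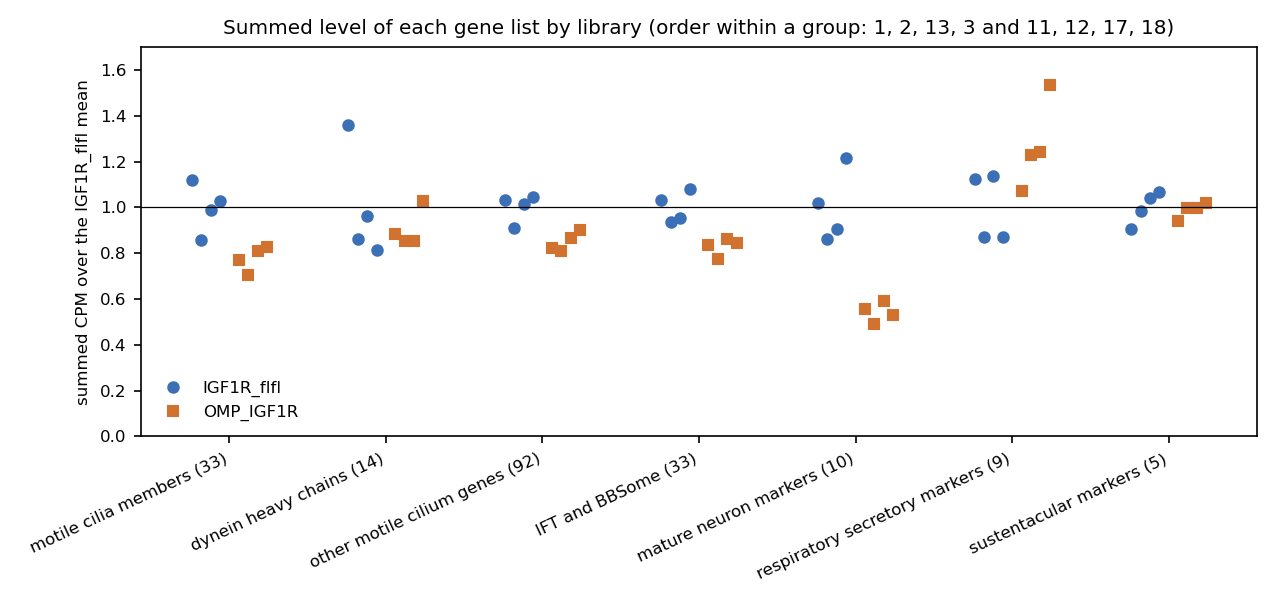
Summed CPM of each gene list in each library, divided by the mean of the 4 libraries titled IGF1R_flfl (y axis, from 0; blue circles IGF1R_flfl, orange squares OMP_IGF1R). The members lie at 0.705 to 0.825 in the OMP_IGF1R-titled libraries, the mature neuron markers at 0.492 to 0.59 and the respiratory secretory markers at 1.07 to 1.54. Bpifa1 makes up most of the secretory sum. Sec14l3 makes up 3654 of the mean 7061 CPM of the other motile cilium genes in the IGF1R_flfl-titled libraries.

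The axonemal dynein heavy chains are the motors of the arms and would belong with the members but for the spelling of their names. Of the 14, 12 were tested and 0 were called by edgeR, which called 8.20% of all tested genes. DESeq2 called 1 lower, voom called 1 lower, and at an unadjusted p under 0.05 there were 1 lower and 1 higher. That unadjusted p was reached by 23.5% of all tested genes. Dnahc11, an outer arm motor of respiratory cilia, was nearest to the threshold, at 142, 105, 98.8 and 108 CPM against 93.0, 85.3, 78.1 and 83.9 CPM, with no overlap (log2 -0.42, SE 0.111, adjusted p = 0.0505 by edgeR). Dnahc5, the other main outer arm motor, stood at 139 ± 44.6 and 129 ± 15.7 CPM (SD, n = 4 each; log2 -0.11, SE 0.195), and Dnahc9 at 98.0 ± 23.3 and 90.4 ± 7.48 CPM (log2 -0.12, SE 0.144). These 3 were singled out after their values were seen.

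The heavy chains as a list varied most through 1 library. Their sum was 770 CPM in IGF1R_flfl 1, 487, 544 and 461 CPM in IGF1R_flfl 2, 13 and 3, and 500, 482, 483 and 580 CPM in OMP_IGF1R 11, 12, 17 and 18. IGF1R_flfl 1 was highest for 10 of the 12, and the median log2 fold change of -0.10 became 0.09 without it.

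A list of 92 other genes of motile cilia gave 27 that fell and 2 that rose of 89 tested, with a median log2 fold change of -0.27. Of all tested genes, 5.37% fell and 2.83% rose by edgeR, and 23.5% had an unadjusted p under 0.05. The list was written with earlier results of these data known, and its members were matched through older gene names where needed. The falls were spread over the structural groups: 3 of 7 dynein arm subunits and docking proteins, 3 of 12 arm assembly factors, 13 of 31 proteins of the regulatory complex, spokes and central pair, and 8 of 26 inner and other ciliary proteins. Of 13 tested regulators of multiciliated cell formation, 0 fell by edgeR, and 1 fell by DESeq2, 0 by voom and 1 at an unadjusted p under 0.05. The 2 that rose were both regulators, Plk4 (log2 0.64, SE 0.0881, adjusted p = 0.0053 by edgeR) and Cep152 (log2 0.42, SE 0.088, adjusted p = 0.0215 by edgeR, singled out after its values were seen). Both proteins act in centriole duplication, which also takes place in dividing cells. Rfx3, a main RFX factor of ciliated cells also singled out afterwards, stood at 180 ± 19.7 and 173 ± 7.77 CPM (SD, n = 4 each; log2 -0.06, SE 0.0808).

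The largest of the falls with a small p was in 9330101J02Rik, now named Cfap46, a central pair protein, at 59.9 ± 10.2 and 32.5 ± 3.35 CPM (SD, n = 4 each; log2 -0.88, SE 0.123, adjusted p = 0.0054 by edgeR). A330021E22Rik, now named Cfap69, a protein found in cilia of olfactory neurons as well as in sperm, fell from 388 ± 41.0 to 270 ± 17 CPM (SD, n = 4 each; log2 -0.52). Lrriq1 fell by 0.63 on the log2 scale, and Dnalc1, a light chain of the outer arm, fell by 0.42. Ttc25, which docks the outer arm, fell by 0.52, and Zmynd10, an assembly factor of dynein arms, by 0.60. Iqcg (-0.46), a subunit of the regulatory complex, and 1700003M02Rik (-0.53), now Cfap206, 1110004E09Rik (-0.41), now Cfap298, Wdr65 (-0.47), now Cfap57, and Capsl (-0.54) also fell. Of these 11, 8 kept their call in each fit that left out 1 library. 1110004E09Rik lost it without IGF1R_flfl 1 or OMP_IGF1R 11 or 18 (edgeR adjusted p up to 0.0611), Capsl without IGF1R_flfl 1 or OMP_IGF1R 11 and Wdr65 without OMP_IGF1R 11 or 12 (each up to 0.0606). The number of the 92 that fell was 11 when IGF1R_flfl 1 was left out and 14 when IGF1R_flfl 3 was. It was 9 with OMP_IGF1R 11 left out, 10 with OMP_IGF1R 12 left out and 13 with OMP_IGF1R 18 left out.

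Intraflagellar transport and BBSome genes, whose products carry cargo in all cilia, the immotile ones of neurons included, gave 14 of 33 that fell and 0 that rose by edgeR (1 higher at an unadjusted p under 0.05, and 0 higher by DESeq2 or voom), with a median log2 fold change of -0.28. The shares over all tested genes were 5.37% lower and 2.83% higher by edgeR. The sum of the transport and BBSome genes was 2603 ± 177 and 2155 ± 101 CPM (SD, n = 4 each), a ratio of 0.828, beside 0.778 for the motile cilia members and 0.904 for the heavy chains. By median log2 fold change the order was another, at -0.28, -0.24 and -0.10 in turn. The differences between these lists were not tested.

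**Figure D5:**
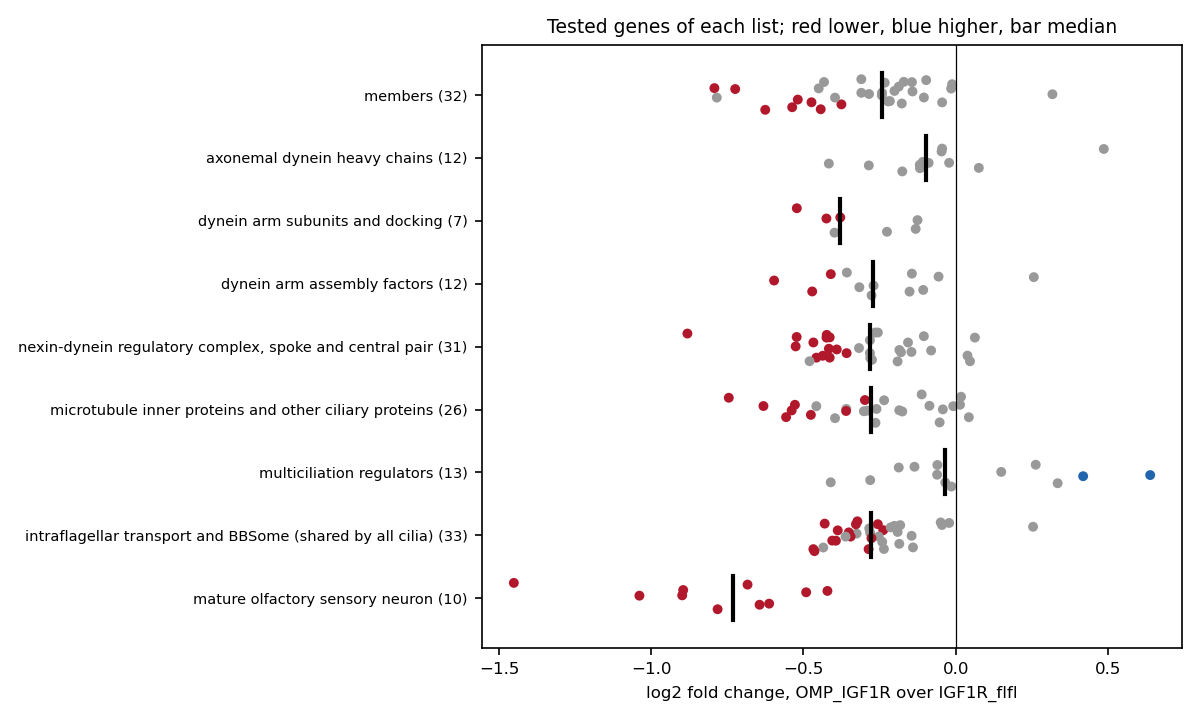
Log2 fold change (x axis, OMP_IGF1R over IGF1R_flfl) of each tested gene in the members, the heavy chains, the groups of other motile cilium genes, the transport and BBSome genes and the mature neuron markers, with genes that fell in red, genes that rose in blue and a bar at the median. The median is -0.24 for the members, -0.10 for the heavy chains and -0.73 for the mature neuron markers, and the 2 blue points are Plk4 and Cep152.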

How the data were processed

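RNA of dissected olfactory epithelium was sequenced as stranded, poly(A)-selected paired reads, per the labels' protocols. Samples were grouped by title. The authors deposited raw counts, whole numbers for each gene and library that were not scaled. The tools named are TopHat2 2.0.14, Trim Galore 0.3.7, DESeq2 and SAMtools 1.2, with GRCm38 (mm10) as the build, per the submitters' processing notes. How reads were assigned to genes, and with which strand setting, was not given in the sources used here. The authors' deposited comparison table holds a mean normalized signal, log2 fold changes and their errors, a score (the test statistic), p-values and adjusted p-values, per the file headers.

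The test was that of edgeR 4.0.16 (quasi-likelihood F-test, TMM, filterByExpr, R 4.3.3) over 17381 genes, with Benjamini-Hochberg adjustment and a threshold of 0.05. Standard errors and 95% intervals come from the F statistic. Depth of 18802471 to 27793375 counts limits genes of few reads, and the floors cover counting error only. Within-group pairs of libraries had a chi-square per gene of 11.9 to 109 on average, so none was counted as a copy. Exon lengths, transcript windows of 100 bases and strand come from GENCODE M21 (GRCm38), and promoters from RefSeq. The members and lists were chosen with earlier results of these data known. Values are given in full for the 5 ciliated cell genes of the rule, the 2 most abundant members of each role and each called member. Rsph9 and Tekt2, outside that rule, were also given in full after their values were seen. Of other motile cilium genes, the 12 with the smallest p are named. Fam81b of that list was not matched, and Nme8, 4930521A18Rik and Foxn4 were not tested.

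Alternatives were DESeq2 size factors, upper-quartile factors, no filter beyond 1 count, 1 CPM in at least 4 libraries, DESeq2 1.42.0, voom (limma 3.58.1), leaving out each library, and 2 pairs of libraries left out. On simulated counts for this comparison (17381 genes, 200 changed), edgeR found 47.0% of the genes given a log2 change of 0.5 and 68.0% of those given a change of 1, with 4.17% false calls.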

Additional observations from a re-analysis of the deposited data

Results flagged for a closer look

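In 4 members 1 library lay apart from the other 3 of its group, which chance alone would give in about 1 in 20 of the 68 groups examined. In OMP_IGF1R 18, Cdhr3 was at 56.4 CPM (next highest 42.7), Spag17 at 11.9 CPM (next 9.29) and Tekt2 at 8.18 CPM (next 6.99). In OMP_IGF1R 12, Tekt1 was at 25.5 CPM, below the next lowest of its group at 32.6 CPM.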

How the results depend on the processing

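No paired analysis was possible because the groups share no replicate number. Under the 6 other scalings, filters and tools, 7 to 12 members fell and 0 rose. Leaving out 1 library, 4 to 12 members fell, 9 to 33 other motile cilium genes fell and 1 to 2 rose, 0 to 1 heavy chains were called and 569 to 1477 genes were called in all. DESeq2 called 2140 genes in all. The heavy chain called was 1 with the 1 CPM filter, 1 by DESeq2 and 1 by voom. Without both IGF1R_flfl 2 and OMP_IGF1R 17, 13 members fell. Without both IGF1R_flfl 1 and OMP_IGF1R 18, 1 member fell, 3 other motile cilium genes fell and 1 rose, and 151 genes were called in all. The same number of libraries entered the fits without either pair, and why their counts differ was not tested. The median of the members ran from -0.34 to -0.18, and the ratio of their summed CPM from 0.733 to 0.836, over the alternatives that give them. Cdhr3, which was not called, changed sign to 0.0165 with upper-quartile factors, and to 0.182, 0.0144, 0.0104, 0.0286 and 0.0458 without IGF1R_flfl 1, IGF1R_flfl 13, OMP_IGF1R 11, OMP_IGF1R 12 and OMP_IGF1R 17 (from -0.143 to 0.182 over all 8 single libraries left out), and to 0.0549 without IGF1R_flfl 1 and OMP_IGF1R 18. Depth limits Tekt3, Tekt5 and Rsph6a most.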

Other observations

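The authors' deposited table gave 11 of the 33 members an adjusted p under 0.05, all 11 with a negative log2 fold change and 0 with a positive one. The share of all genes that passed this threshold there was not counted, so the 11 have no share beside them. In the authors' deposited table Foxj1 had a log2 fold change of -0.28 (adjusted p = 0.0383) and Tekt3 one of -0.46 (adjusted p = 0.0636). Sec14l3, a lipid transfer protein among the other ciliary genes, was far above the others of its list at 3654 ± 234 and 3236 ± 148 CPM (SD, n = 4 each; log2 -0.18, adjusted p = 0.13 by edgeR). Tmem212 and Sntn, which belong to ciliated cells, stood at 34.1 ± 6.24 and 35.1 ± 5.15 CPM and at 22.5 ± 4.60 and 22.3 ± 3.08 CPM (SD, n = 4 each), with log2 fold changes of 0.04 and -0.01. Both were singled out after their values were seen. Of the 26 tested inner and other ciliary proteins, the group that holds them, 23 had a negative fold change and 8 fell.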
